A study of Homo sapiens with 3 samples.

Results

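The polyamine synthesis genes were followed through the MAX and BMAL1 peak lists of a ChIP-seq experiment. This set holds 9 genes, ODC1, SRM, SMS, AMD1, OAZ1, OAZ2, AZIN1, SAT1 and PAOX, out of 20098 protein-coding genes annotated by GENCODE on chromosomes 1 to 22 and X of hg19. A peak was assigned to a gene when its summit, the position of highest signal, lay in the gene body or no more than 20 kb from where any of its transcripts starts (TSS, transcription start site). By this rule 7 of the 13650 MAX peaks and 1 of the 756 BMAL1 peaks belonged to the set. All material came from MDA-MB-231, a long-established line of human triple-negative breast cancer cells. Cross-linking lasted 10 min in 1% formaldehyde, and the labels name no drug, knockdown or clock-synchronizing treatment. Chromatin was precipitated with 4 µg of an antibody against MAX or BMAL1, and input chromatin, which was not precipitated, served as the background for both. Each of the 3 was 1 library, so no value has a replicate check and no test between groups was possible.

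Polyamines (putrescine, spermidine and spermine) are small, positively charged molecules that bind nucleic acids and are needed for cell growth. ODC1 converts ornithine to putrescine, AMD1 makes the aminopropyl donor, and SRM and SMS use this donor to build spermidine and then spermine. The antizymes OAZ1 and OAZ2 bind ODC1 and send it to the proteasome, AZIN1 is an inactive ODC1 relative that captures antizyme, and SAT1 and PAOX acetylate and oxidize polyamines on the way back to putrescine. MAX binds DNA as a dimer with MYC, MNT or MXD proteins and recognizes the E-box CACGTG, which the clock activator BMAL1 also recognizes together with CLOCK. ODC1 is a textbook target of MYC and MAX through E-boxes in its promoter-proximal part.

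The sequences that carry the result are those around the E-boxes near the peaks of AMD1, ODC1 and SRM, read from GRCh37 in the direction of transcription with the E-box or its variant in capitals. The element 30 bases wide at AMD1 holds the variant CACGCG instead. The entries named ODC1 intron 1 lay in no listed peak, and all others lay in a MAX peak. Introns are those of the canonical transcript, and the ODC1 intron 1 and SRM entries also overlapped an annotated untranslated region.
AMD1 intron 1, the whole BMAL1 peak, chr6:111197502-111197801, plus strand: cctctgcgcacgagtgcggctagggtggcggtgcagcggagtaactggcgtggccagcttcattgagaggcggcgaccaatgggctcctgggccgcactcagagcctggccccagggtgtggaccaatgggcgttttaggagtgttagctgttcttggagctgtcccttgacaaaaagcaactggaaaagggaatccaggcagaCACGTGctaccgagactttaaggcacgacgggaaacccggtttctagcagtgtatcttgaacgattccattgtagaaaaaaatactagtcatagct
AMD1 intron 1, other E-box of the same MAX peak, chr6:111197852-111197911, plus strand: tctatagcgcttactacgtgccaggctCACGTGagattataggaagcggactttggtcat
AMD1 intron 1, variant E-box of the neighbouring MAX peak, chr6:111196581-111196610, plus strand: agcggccatgtcCACGCGggccggagccgg
ODC1 upstream, from the MAX summit to past the E-box, chr2:10588921-10589077, minus strand: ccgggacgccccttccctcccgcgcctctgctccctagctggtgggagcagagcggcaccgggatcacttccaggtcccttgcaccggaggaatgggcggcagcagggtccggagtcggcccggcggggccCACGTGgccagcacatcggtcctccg
ODC1 intron 1, E-box nearer the TSS, chr2:10588150-10588179, minus strand: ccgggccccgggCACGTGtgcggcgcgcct
ODC1 intron 1, E-box farther from the TSS, chr2:10588116-10588145, minus strand: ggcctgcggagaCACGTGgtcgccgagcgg
SRM intron 1, E-box nearer the TSS, chr1:11119607-11119636, minus strand: tgcgccccgctcCACGTGtcagccctcagg
SRM intron 1, E-box farther from the TSS, chr1:11119517-11119546, minus strand: gccgttcctcgcCACGTGtcaccatcgctc

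The lists were made from 11545865 MAX tags, 13866783 BMAL1 tags and 29308882 input tags. For each peak they give the pileup, which is the number of fragments, extended to 300 bp, that cover the summit, and the fold enrichment, which is this pileup over the background expected there. The background came from input chromatin, with a floor of 1.28 fragments for MAX and 1.54 for BMAL1. The lowest listed pileup was 9 fragments for MAX and 12 for BMAL1, so an unlisted site had no peak above the cutoff at this depth and may still hold weak signal. Pileups carry an exact Poisson 95% interval, and the same interval divided by the background is given for fold enrichment. These intervals cover counting error of the pileup only. They take the background as exact and do not cover the choice of the highest point as the summit.

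A MAX peak was listed for 5 of the 9 genes, AMD1, ODC1, SRM, AZIN1 and OAZ1, and for none of SMS, OAZ2, SAT1 and PAOX. Among all protein-coding genes the same rule found a MAX summit for 54.9% (11043 genes, Wilson 95% interval 54.3% to 55.6%), so the count for the set was close to this background. With the summit within 1 kb of a TSS, 4 of the 9 genes had a MAX peak, against 36.4% of all genes. A BMAL1 peak was listed for AMD1 only, against 4.99% of all genes, and 4.83% had summits of both antibodies. With the summit within 1 kb of a TSS the share for BMAL1 was 1.85%, and AMD1 counted here too. Regions differ in size with gene length, from 40548 bp for ODC1 to 103638 bp for AZIN1 in the set, and their median over all genes was 56150 bp.

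**Figure D1:**
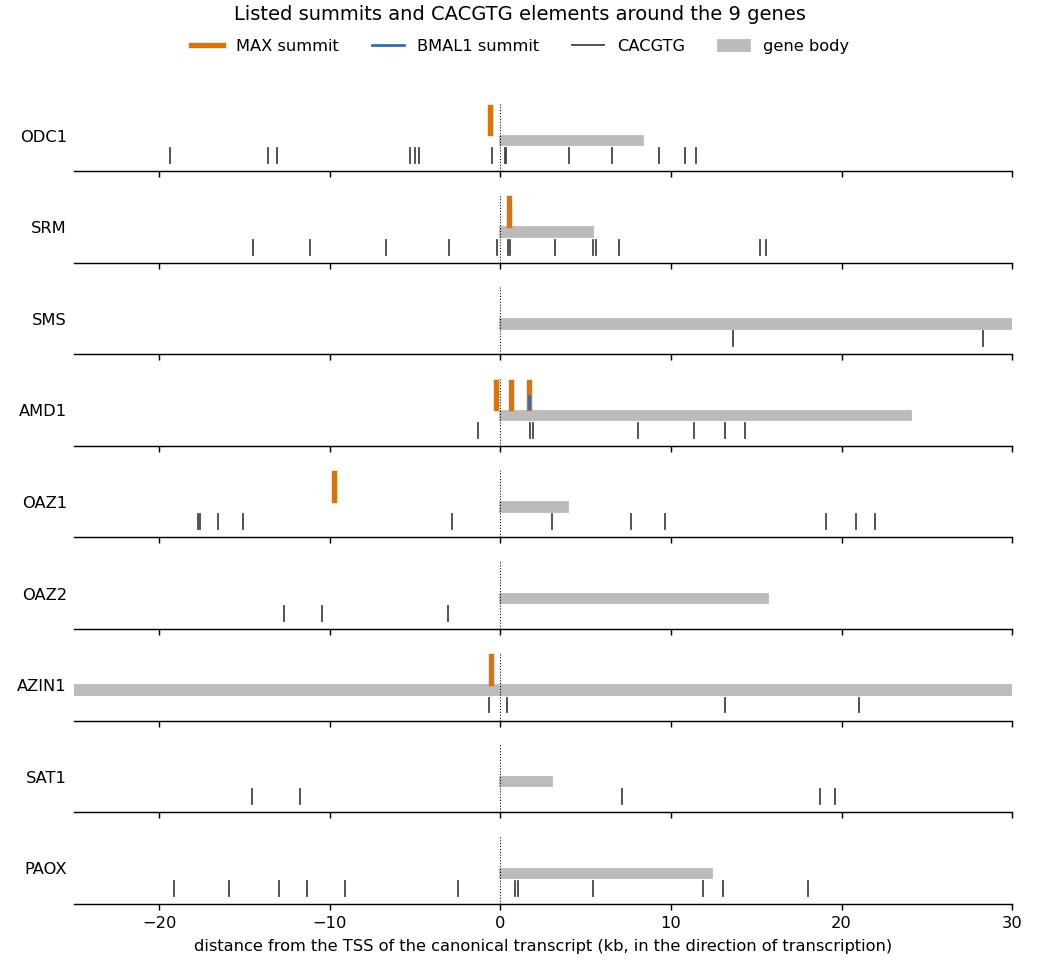
Each row shows 1 of the 9 genes, drawn from 25 kb upstream to 30 kb downstream of the canonical TSS (x axis, kb), with MAX summits in orange, the BMAL1 summit in blue, CACGTG elements as thin black lines and the gene body in grey. The bodies of SMS and AZIN1 run past the axis. AMD1 carries 3 MAX summits and the BMAL1 summit, ODC1, SRM, AZIN1 and OAZ1 carry 1 MAX summit each, and the other rows have none.

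AMD1, the decarboxylase that supplies aminopropyl groups, held the most peaks and the strongest MAX peak of the set. On chromosome 6 it had 3 MAX peaks close together, and 11.4% of all protein-coding genes had 3 or more MAX summits in their regions. All 3 lay within 1 kb of an AMD1 TSS, where 5.96% of all genes had 2 or more, and the share with 3 or more there was not counted. The strongest MAX peak (111197056 to 111197949) had its summit in intron 1, 1664 bp downstream of the canonical TSS. Its pileup was 24 fragments (interval 15.4 to 35.7) and its fold enrichment 15.23 (9.76 to 22.7), above 88.0% of MAX peaks. This peak, the only one of the set above the upper quartile of the MAX list (12.37), was the one shared with BMAL1, and 4.67% of all MAX peaks overlapped a BMAL1 peak.

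The BMAL1 peak at AMD1 (111197502 to 111197801) lay entirely inside that MAX peak, with 300 bp of overlap. Both summits stood at position 111197652, and such an exact match of summits occurred in 8 of the 636 overlapping pairs of the whole lists (1.26%), while 73.1% of the pairs had summits within 100 bp. The BMAL1 peak did not reach within 300 bp of a TSS, as 44% of BMAL1 peaks did. The BMAL1 pileup was 14 fragments (7.65 to 23.5) and its fold enrichment 7.4 (4.05 to 12.4), above 19.0% of BMAL1 peaks only. By pileup the peak was above only 1.19% of the BMAL1 list, and by -log10 p above 3.97%. Its length of 300 bp is the smallest in the list, shared by 7.01% of BMAL1 peaks. With a -log10 p of 8.73 it met the threshold of 1e-08 given in the methods but was not kept at 1e-12. The site thus stood high in the MAX list and low in the BMAL1 list, and the enrichments of the antibodies were not compared with each other.

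The E-box printed in capitals in the 300-base AMD1 sequence (111197706 to 111197711) lay 57 bp from the shared summit and was the only CACGTG in the BMAL1 peak. The other E-box of the MAX peak (111197879 to 111197884) was 230 bp from the summit and outside the BMAL1 peak. Because CACGTG is its own reverse complement, finding it on 1 strand finds it on both. In the 200 bp centred on the summit it occurred in 75.3% of all BMAL1 peaks and 21.2% of all MAX peaks.

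The other MAX peaks of AMD1 held no CACGTG. The one upstream (111195169 to 111195953, summit 239 bp before the canonical TSS) had 18 fragments (10.7 to 28.4) and a fold enrichment of 10.73 (6.36 to 17.0). It held the E'-box CACGTT, in either orientation, at 289 and 422 bp from its summit. The peak between (111196320 to 111196998, summit in intron 1, 621 bp downstream) had 16 fragments (9.15 to 26) and a fold enrichment of 9.47 (5.41 to 15.4). Its nearest variant, CACGCG, lay 13 bp from the summit. A further variant searched for was CATGTG. On either strand, CACGTG or any of these 3 variants stood in the central 200 bp of 6681 of the 13650 MAX peaks, so a match that includes the variants is common.

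ODC1, which makes putrescine and is the rate-limiting enzyme of the pathway, had 1 MAX peak, and it lay upstream of the gene rather than in it. This peak (chromosome 2, 10588860 to 10589461) had its summit 604 bp before the canonical TSS, outside the ODC1 transcript. The nearest TSS of any gene, 146 bp away, was that of ODC1-DT, a long noncoding RNA gene on the opposite strand. The pileup was 16 fragments (9.15 to 26) and the fold enrichment 10.15 (5.8 to 16.5), above 54.8% of MAX peaks, near the middle of the list by this measure. By pileup it was above 29.4% of the list, and by -log10 p (11.84) above 43.1%.

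The E-box of the ODC1 peak (10588941 to 10588946) lay 113 bp from the summit, just outside the central 200 bp. The pair of E-boxes in intron 1, at 288 and 322 bp downstream of the TSS, stood 24 and 5 bp from alternative TSSs of the gene. It was 892 and 926 bp from the summit and inside no listed peak of either antibody. Over all genes, 948 such neighbouring pairs of CACGTG started within 100 bp of each other and within 1 kb of a protein-coding TSS, and 21.4% of them had an element inside a MAX peak. Of the 14 CACGTG elements in the whole ODC1 region, 1 was inside a MAX peak, and the share over the regions of all genes was not counted. The nearest BMAL1 summit was 532833 bp from an ODC1 TSS.

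SRM, spermidine synthase, also had 1 MAX peak, and unlike that of ODC1 it covered a pair of E-boxes in intron 1. The peak (chromosome 1, 11119391 to 11119801) had its summit 484 bp downstream of the canonical TSS, with 12 fragments (6.2 to 21.0) and a fold enrichment of 9.35 (4.83 to 16.3), above 43.8% of MAX peaks. By pileup it was above only 3.15% of the list, and by -log10 p (8.9) above 14.9%. The E-boxes stood 31 and 59 bp from the summit, on either side of it. Only 1.48% of MAX peaks (202) held 2 or more CACGTG in the central 200 bp. Another E-box, upstream of the TSS, was 681 bp from the summit and outside the peak. The nearest BMAL1 summit was 79239 bp from an SRM TSS.

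For SMS, spermine synthase, on chromosome X, neither antibody had a listed peak, and the nearest MAX summit was 100838 bp from an SMS TSS. None of the 4 CACGTG elements of its region lay within 1 kb of a TSS. Of the 869 protein-coding genes of chromosome X, 26.1% had a MAX summit by the same rule, and 17.3% had one within 1 kb of a TSS, both below the shares over all genes. SAT1, also without a peak, lies on the same chromosome.

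**Figure D2:**
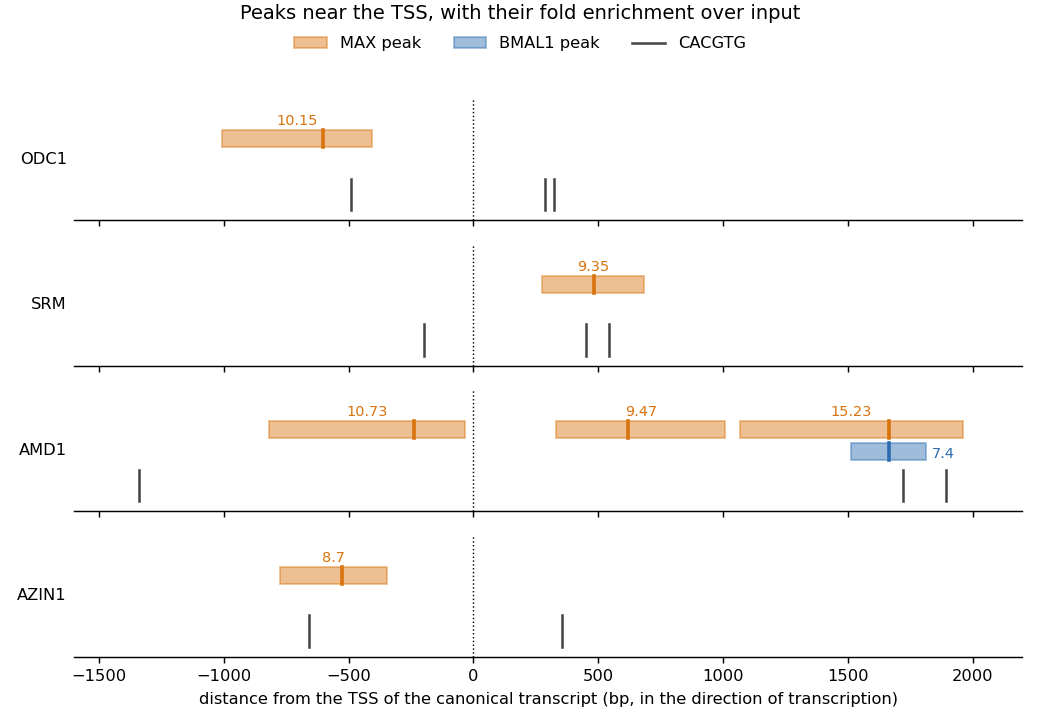
Called peaks of ODC1, SRM, AMD1 and AZIN1 (boxes, with a line at the summit and the fold enrichment printed beside each) are drawn against the distance from the canonical TSS (x axis, bp). The paired E-boxes of SRM (black lines) lie under its peak, whereas those of ODC1 at 288 and 322 bp lie outside it, and the BMAL1 box of AMD1 lies within the strongest MAX box.

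Among the regulators of ODC1, AZIN1 had a MAX summit within 1 kb of a TSS, 497 bp from the nearest of its own, and the antizymes did not. The AZIN1 peak, which lies within longer transcripts of the gene (chromosome 8, 103876736 to 103877165) had its summit 527 bp upstream of the canonical TSS and 232 bp from the TSS of the noncoding gene MAILR on the opposite strand. Its pileup of 24 fragments (15.4 to 35.7) equalled that of the strongest AMD1 peak. The input background there was higher, 2.76 against 1.58 fragments, and the fold enrichment was accordingly 8.7 (5.57 to 12.9), above 36.4% of MAX peaks. An E-box lay 131 bp from the summit. By -log10 p (15.33) the peak was above 67.1% of the list, so its place depended on the measure.

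OAZ1 had a MAX peak (chromosome 19, 2259465 to 2259915) only far upstream, with its summit 9776 bp before the canonical TSS. The nearest protein-coding TSS, 3327 bp away, was that of JSRP1. The fold enrichment was 7.41 (3.83 to 12.9), above 18.9% of MAX peaks, on 12 fragments (6.2 to 21.0), and no CACGTG was in the peak. With a -log10 p of 7.72 this was the weakest peak of the set, and it was not kept at the threshold of 1e-08. The antizyme OAZ2 had no peak in either list, and its nearest MAX summit was 122732 bp from a TSS.

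Of the catabolic genes, neither SAT1, the spermidine and spermine acetyltransferase, nor PAOX, the oxidase of acetylated polyamines, had a listed peak. For SAT1 the nearest MAX summit lay 22470 bp from a TSS, just outside the 20 kb limit, with 16 fragments and a fold enrichment of 12.47. For AZIN1 the nearest MAX summit outside the limit lay at 21548 bp, with 24 fragments and a fold enrichment of 8.12. The assigned summit closest to the limit was that of OAZ1, at 9765 bp from its nearest TSS. PAOX had 3 CACGTG elements within 1 kb of any of its TSSs, at 877, 1054 and 11903 bp downstream of the canonical one. Its nearest MAX summit was 51054 bp away, so an E-box near a TSS was not accompanied by a listed peak in this gene.

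Across the set, the 7 MAX peaks could not be ordered by strength beyond counting error. Their fold enrichments ran from 7.41 to 15.23 with a median of 9.47, against a median of 9.73 and quartiles of 7.86 and 12.37 over all MAX peaks, and 3 of the 7 lay above that median. All 7 intervals contained the range from 9.76 to 12.9. Their median pileup was 16 fragments, against 18 over the list. The median length of the 7 peaks was 602 bp, against 446 bp.

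**Figure D3:**
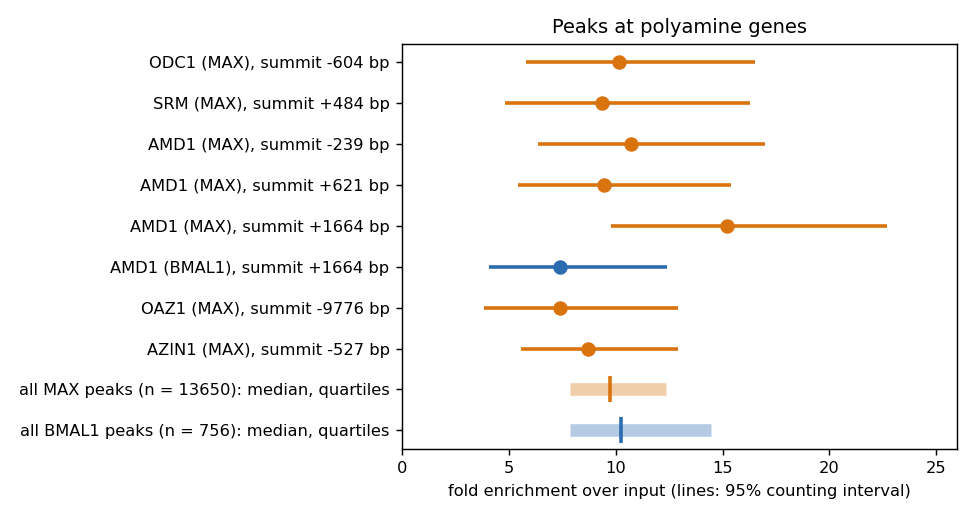
Fold enrichment over input (x axis, linear scale) is shown for the 8 peaks of the set as points with 95% Poisson counting intervals, MAX in orange and BMAL1 in blue, above the medians and quartiles of the whole lists. The intervals of all 7 MAX peaks overlap between 9.76 and 12.9, and the BMAL1 peak of AMD1 (7.4) lies below the lower quartile of its list.

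In position, 6 of the 7 MAX peaks reached within 300 bp of an annotated TSS, against 53.6% of all MAX peaks. The ODC1 and AZIN1 peaks did so only through the noncoding genes ODC1-DT and MAILR, and the OAZ1 peak reached none. With the TSSs of protein-coding transcripts alone, 4 of the 7 peaks, those of SRM and AMD1, reached within 300 bp, as did 6108 of all MAX peaks. The median GC content in the central 200 bp was 67.5%, against 60.5% over the list. The summits of SRM, ODC1, AZIN1 and the middle AMD1 peak lay above the list median, whereas those of the upstream AMD1 peak (59.5%), the strongest AMD1 peak (56.5%) and OAZ1 (55%) lay below it. The median ratio of observed to expected CpG was 0.743 against 0.607, and the strongest AMD1 peak (0.571) and the OAZ1 peak (0.137) lay below the list median.

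E-boxes near a TSS went with MAX peaks in part of the set. CACGTG stood within 1 kb of a TSS of any transcript in 6 of the 9 genes, against 51.6% of all protein-coding genes. Such a TSS could lie far inside the gene. The only element counted for OAZ1 was in intron 4, 3044 bp downstream of its canonical TSS. Those of AMD1 lay at least 1721 bp downstream of its canonical TSS, and SRM had elements at 5413 and 5615 bp. Of the 6 genes, ODC1, SRM, AMD1 and AZIN1 had a MAX summit within 1 kb of a TSS, whereas OAZ1 and PAOX did not. The corresponding share over all genes with such an element was 44.6%. SMS, OAZ2 and SAT1 had neither the element nor a summit there, and 27.6% of all genes without the element had a MAX summit within 1 kb. In 4 of the 6 genes an element lay inside the peak itself, against 23.3%. By element, 5 of the 18 CACGTG within 1 kb of a TSS of the set were inside a MAX peak, against 13.6% of 19288 over all genes. In the regions as a whole 6 of 80 were, and the share over the regions of all genes was not counted. CACGTG stood in the central 200 bp of 2 of the 7 MAX peaks, SRM and the strongest of AMD1, against 21.2% of all MAX peaks. It stood anywhere in the peak in 4 of the 7 and in 4072 of all 13650 MAX peaks.

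The wider polyamine network was counted by the same rule. Its 22 genes serve the supply of ornithine, putrescine and S-adenosylmethionine, methylthioadenosine salvage, hypusination and transport, or are paralogues of the 9 genes. Of the 22, 16 had a MAX peak, against 54.9% of all genes, and 14 had one within 1 kb of a TSS, against 36.4%. A BMAL1 peak was found for 3 of the 22, against 4.99%. The strongest MAX peak of these 16 genes had a median fold enrichment of 13.1, against 11.5 over all genes with a MAX peak and 9.35 over the 5 genes of the set. For several of these genes the strongest peak lay nearer to a TSS of another gene, so the median does not describe their own promoters alone. SAT2, OAZ3, ARG1, MTAP, ATP13A2 and ATP13A3 had no MAX peak. Of these genes MTAP stood farthest from any MAX summit, at 2675120 bp, followed by ARG1 at 373914 bp. For BMAL1 the distance at MTAP was 11461029 bp. Whether the DNA around MTAP is present in these cells was not tested. Its place among the 22 genes as one without a peak therefore does not show that MAX left it unbound.

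The 5 highest MAX values in the wider list belonged to AGMAT, EIF5A, MAT2B, SLC3A2 and AZIN2. For AGMAT, agmatinase, the highest value (21.83) came from a peak 18647 bp upstream whose nearest TSS, 72 bp away, was that of a noncoding gene, and the peak in its intron 1 had a fold enrichment of 19.49. For EIF5A, the translation factor that carries hypusine made from spermidine, the highest value (21.54) was at a site 1814 bp from a TSS of YBX2 and 10546 bp from the nearest of its own, while its promoter peaks had 11.0 and 10.92. MAT2B, a regulatory subunit of the enzyme that makes S-adenosylmethionine, had its strongest peak (17.93) with the summit 23 bp from a TSS and no CACGTG in it. SLC3A2, a subunit of amino acid transporters, had 17.35 with the summit 30 bp from a TSS of its own, 24922 bp from its canonical TSS and 21 bp from that of the noncoding gene SNHG1. AZIN2, the paralogue of AZIN1, had 15.11 in intron 10, 4962 bp from the nearest TSS.

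BMAL1 peaks of the wider list were at AZIN2, EIF5A and EIF5A2, and all 3 overlapped a MAX peak, as did 84.1% of the whole BMAL1 list. The BMAL1 fold enrichment was 13.96 (8.75 to 21.1) in intron 10 of AZIN2 and 25.16 (19.8 to 31.5) at the distal EIF5A site. At EIF5A2, the paralogue of EIF5A, it was 18.82 (12.6 to 27) with the summit 183 bp from a TSS of its own and 30 bp from that of another gene, ENSG00000286856. Each of these values was above the 7.4 of AMD1, and the interval of AZIN2 overlapped that of AMD1 (4.05 to 12.4). The intervals of EIF5A and EIF5A2 did not, but that of EIF5A2 began only just above it. Error in the background is not in these intervals, so they do not serve as a test.

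**Figure D4:**
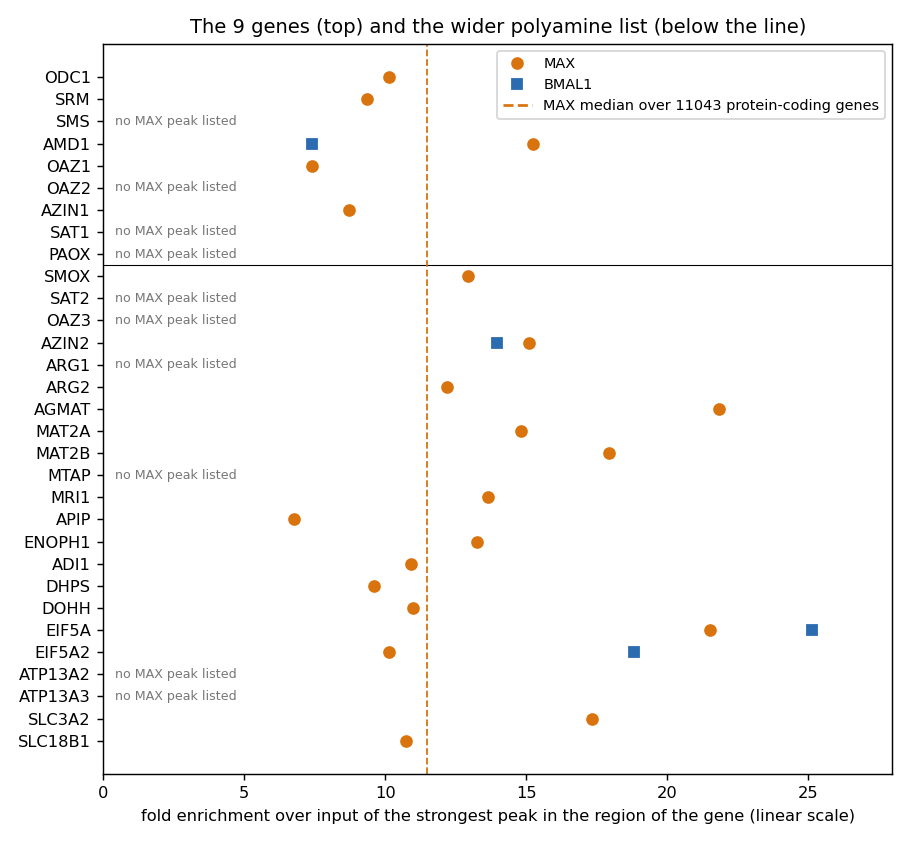
The strongest MAX (orange circles) and BMAL1 (blue squares) fold enrichment over input (x axis, linear scale) is shown for the 9 genes and, below the line, for the 22 genes of the wider list. Genes with no MAX peak are marked as such, and of the 9 genes only AMD1, at 15.23, lies to the right of the dashed median of 11.5 over 11043 protein-coding genes.

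No gene could be singled out as most like ODC1. Among the 10071 other protein-coding genes listed for MAX and not for BMAL1, the strongest MAX fold enrichment was exactly that of ODC1 in 214 and within 0.1 on the log2 scale in 1563, over these 2 libraries.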

How the data were processed

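ChIP-seq of MAX and BMAL1 in MDA-MB-231 cells was used with its input, 1 library each, grouped by the antibody in the labels. Reads were mapped by the authors to hg19 (BWA 0.6.2), and MACS2 2.0.9 called the peaks, separately for each antibody against the input. The deposited pileup is a coverage signal, the fragments extended to 300 bp at the summit. The deposited fold enrichment is the ratio of pileup to background, taken from local input where this exceeded the floor. The floor, 1.28 fragments for MAX and 1.54 for BMAL1, equals the level expected over the whole genome. The SRM peak was at this floor. The deposited -log10 p-value and -log10 q-value come from the peak caller. Per the file headers the p cutoff was 1e-05, and the methods give 1e-08. All listed peaks were used. The caller kept at most 1 tag per position for MAX and 2 for BMAL1.

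Positions were checked to lie within GRCh37, the assembly that hg19 names, and genes came from GENCODE release 44 mapped to it. The genes and lists were chosen with earlier results of these data known. The genes named were all 9 members, the 5 genes of the wider list with the highest MAX fold enrichment and those with a BMAL1 peak, and genes nearer to a peak than the member. Counts were set beside those over all protein-coding genes. No test was run, since there is 1 library per antibody. Alternatives changed the threshold, region, TSS set, overlap, E-box window and measure. The position rules, motif search and Poisson intervals were tested on simulated data. Analyses ran in Python 3.11.15 (matplotlib 3.10.9, scipy 1.17.1, pandas 2.3.3, pysam 0.24.0, numpy 2.4.6).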

Additional observations from a re-analysis of the deposited data

How the results depend on the processing

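Over 14 results and 66 alternatives, 48 values stayed within 1.5 times the reported one (or, for a percentile, within its interval) and 18 moved further. At p 1e-12, 2 genes of the set kept a MAX peak (3 peaks, at AMD1 and AZIN1), and 0 kept a BMAL1 peak, so 0 BMAL1 peaks of the set overlapped a MAX peak. At this threshold 7883 of the 20098 protein-coding genes had a MAX peak and 768 a BMAL1 peak. With 50 kb in place of 20 kb, 6 genes of the set had 19 MAX peaks, beside 13359 of all protein-coding genes, and 2 genes had 3 BMAL1 peaks. Over all protein-coding genes, 7310 had a MAX peak and 372 a BMAL1 peak within 1 kb of a TSS, and BMAL1 peaks were found for 648 genes at 5 kb and for 1694 at 50 kb. CACGTG within 50 bp of the summit was found in 1 MAX peak and 0 BMAL1 peaks of the set. Over the whole lists it was found there in 1856 MAX peaks and 450 BMAL1 peaks. It was found anywhere in the peak in 4 MAX peaks of the set and in 4072 of all MAX peaks. With the variants included, the central 200 bp matched in 3 MAX peaks of the set and in 6681 of all MAX peaks. The median percentile of the strongest MAX peak per gene was 43.8 by fold enrichment and 29.4 by pileup. The cause was not tested where the construction of the alternative, such as fewer peaks or wider regions, does not give it. No paired analysis was possible because each antibody has 1 library and no result comes from a test. Pileups of 12 to 24 fragments limit every comparison of peak strength within the set.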

Other observations

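Between 20 and 50 kb from the nearest TSS of any of its transcripts, AZIN1 had a group of MAX and BMAL1 peaks beyond its 3' end. They lay outside the region used above. AZIN1 was the protein-coding gene with the nearest TSS, counting all transcripts of such genes. The canonical TSS of AZIN1, at position 103876391, was farther from the group. The strongest MAX peak there (chromosome 8, 103819085 to 103820141) had 55 fragments. Its fold enrichment of 23.27 exceeded 98.0% of the MAX list and each of the 7 MAX peaks assigned to the set. It overlapped a BMAL1 peak (103819525 to 103820048) with 48 fragments and a fold enrichment of 11.27, above 59.3% of BMAL1 peaks. A neighbouring MAX peak (103818339 to 103818986, fold enrichment 14.33) overlapped another BMAL1 peak (103818445 to 103818808, fold enrichment 7.05). CACGTG stood in the central 200 bp of these 4 peaks. The sites were noticed only after the values were seen, and these lists do not tie them to a gene.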
